A study of Mus musculus with 18 samples.

Results

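The genes described are 7 components of Fc receptor and ITAM signalling: the Fc gamma receptors Fcgr1, Fcgr2b, Fcgr3 and Fcgr4, the adaptors Fcer1g and Tyrobp, and the kinase gene Syk. They were chosen by symbol and not by a cutoff on their measured values, though with earlier results of these data known. The count table held 35655 genes, of which 18049 had a count in at least 1 library. Their levels were followed in 18 libraries of laser-dissected carotid artery from wild-type C57/BL6 mice, taken before wire injury (day 0, 4 libraries) and 7 (4 libraries), 14 (3), 21 (4) and 28 days (3) after it. The mice were male and 11 weeks old at surgery, and only the left carotid was injured. The study's methods name the uninjured right carotid as the control, whereas the labels call day 0 pre-injury. All groups share this strain and genotype, with no transgene. The dissected area held the outer elastic lamina and the neointima. The study describes the samples as pooled and its methods state that vessels with thrombosis were removed. The sources used here do not state how many animals stand behind a library, or whether a day 0 vessel and a later one came from the same animal, although 3 of the numbers that name the libraries are shared by a day 0 and a day 21 library. Where libraries of 1 day came from the same animals, the p-values measure technical spread only.

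Fc receptors bind the constant part of antibodies, and so let leukocytes such as macrophages sense immune complexes and antibody-coated particles. Fcgr1, Fcgr3 and Fcgr4 encode the ligand-binding chains of activating receptors, which signal through the gamma chain encoded by Fcer1g. Fcgr2b encodes the inhibitory receptor, which carries an inhibitory motif (ITIM) of its own. Tyrobp encodes DAP12, a second adaptor with an activation motif (ITAM), used by receptors such as TREM2 rather than by Fc gamma receptors. Src family kinases phosphorylate the ITAM of either adaptor, and the kinase SYK then docks there and passes the signal on.

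All 7 genes were at their highest mean level on day 7. Between days 0 and 7, mean levels in CPM (counts per 1e+06 counts of a library) rose from 14.3 ± 11.6 to 352 ± 56.9 for Tyrobp, from 3.28 ± 2.69 to 156 ± 80.6 for Fcer1g and from 15.8 ± 7.92 to 237 ± 18.03 for Fcgr3 (SD over 4 libraries each). Fcgr4, without a count before injury, then stood at 47.2 ± 20.0 CPM (SD, n = 4). By day 28 Fcer1g was the only one still called above day 0, at 38.2 ± 8.09 CPM (SD, n = 3). Library sizes were scaled by TMM for the CPM. A gene was called where edgeR's quasi-likelihood test, with Benjamini-Hochberg adjustment over the 10312 genes tested, gave an adjusted p under 0.05.

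Libraries held 440675 to 878310 counts with a median of 659166, and 10674 to 13361 genes with a count. The 7 genes together had 33 to 47 counts in a day 0 library and 62 to 740 after injury, so that day 0 levels rest on few counts. All 7 passed the filter on low counts, but none would have done so on the day 0 libraries alone, where Fcgr4 had no count. In bulk tissue, more cells of a type and more RNA per cell cannot be told apart. The summed CPM of 16 macrophage markers was also highest on day 7. Its mean was higher on day 21 than on day 14, whereas that of each of the 7 genes was lower, with none called. The day means of the markers were 344 ± 187 (day 0, range 195 to 600.01), 6481 ± 1059 (day 7, range 5415 to 7903), 2643 ± 983 (day 14, range 1523 to 3364), 3042 ± 715 (day 21, range 2155 to 3865) and 1079.5 ± 196 (day 28, range 962 to 1306), each with its SD. Of 15 such markers tested, 14 were called higher on day 7. Itgam and Mpeg1 had no count on day 0. Markers of other blood cells were also called higher on day 7, and several of the 7 genes are expressed by more leukocytes than macrophages. Summed neutrophil markers (10 genes) went from 54.6 ± 33.6 to 503 ± 251 CPM, with 4 of 4 tested genes called. The neutrophil alarmin S100a8 was among them, at 0.598 ± 1.2 and 182.5 ± 109.75 CPM (SD, n = 4 each). The rest of the 10 were too low to test, and 4 of the 10 had no count on day 7. Dendritic markers (6 genes) went from 9.89 ± 5.66 to 70.7 ± 31.4 CPM with 2 of 3 tested genes called, and platelet markers (5 genes) from 84.0 ± 25.0 to 287 ± 88.0 CPM with 1 of 2 called. Red cell markers (5 genes) went from 214 ± 172 to 1566 ± 962 CPM with 4 of 5 called (SD, n = 4 each). The defining markers of the labelled artery, 6 smooth muscle genes, fell from 34745 ± 2293 summed CPM before injury to 3419 ± 2508 a week later (SD, n = 4 each). The part of cell make-up in the values below was not tested beyond the ratios given later.

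Fcgr2b, Fcgr3, Fcgr4 and Fcer1g lie on mouse chromosome 1 (GRCm39, GENCODE vM39). Fcgr2b (ENSMUSG00000026656) spans chr1:170786186-170804177 on the minus strand, Fcgr4 (ENSMUSG00000059089) chr1:170846466-170857330 on the plus strand and Fcgr3 (ENSMUSG00000059498) chr1:170878738-170893549 on the minus strand. Fcer1g (ENSMUSG00000058715) lies nearby at chr1:171057141-171062219 on the minus strand. Fcgr1 (ENSMUSG00000015947) is elsewhere, at chr3:96190225-96201338 on the minus strand. Tyrobp (ENSMUSG00000030579) is at chr7:30113170-30117010 and Syk (ENSMUSG00000021457) at chr13:52736696-52802828, both on the plus strand. The reads came from 3′ ends of transcripts, so the last 350 bases of each transcript were compared with all other genes in runs of 31 bases. No run was shared for Tyrobp, Fcer1g, Fcgr1, Fcgr2b or Syk. For Fcgr3, 0.775% of the runs were shared with Fcgr2b, and for Fcgr4, 5.31% were shared with many unrelated genes. Hcst, which encodes the adaptor DAP10, ends 124 bases from the end of Tyrobp on the other strand, and an exon of Fcgr2b overlaps the opposite-strand transcript Gm38204. Whether strand was used in counting is not given in the sources used here. Hcst was at 11.3 ± 7.8 CPM on day 7 (SD, n = 4).

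Because the 7 genes rose on the same day, the 250 bases before their transcription starts were read from RefSeq's table (GRCm38.p6), which holds 6 of the 7, all but Tyrobp, and were placed on GRCm39 by exact match. They were searched for GAGGAA and its reverse complement TTCCTC, the core of the sites bound by the myeloid transcription factor PU.1 and by other ETS family factors. Of the 6 genes, 4 held it before at least 1 start, against 25.9% of the 27025 genes in the table and 23.3% of its 32851 promoters. The match is shown in capitals for these genes, in a window of 30 bases on the strand of the gene.
Fcgr1, chr3:96201323-96201352, minus strand: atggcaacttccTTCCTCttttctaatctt
Fcgr3, chr1:170886964-170886993, minus strand: agagagtccatttccTTCCTCtttttgtag
Fcgr4, chr1:170846461-170846490, plus strand: aaggctatttacTTCCTCtcttctagtcaa
Syk, chr13:52750888-52750917, plus strand: tgtcttgcttgctgacactttGAGGAAaag
In the activating receptors the match was within 55 bases of the start, at bases 55 to 50 before it for Fcgr1, 15 to 10 for Fcgr3 and 22 to 17 for Fcgr4. For Syk it lay at bases 9 to 4 before the second of the starts in the table. The Fcgr3 window and the second Syk start lie inside the gene spans given above, which begin further upstream, and the Fcgr1 and Fcgr4 windows reach across the first base of the spans. No match was found in the windows of Fcer1g and Fcgr2b. Of the matches, only that of Fcgr4 extended to the longer GAGGAAGT (reverse complement ACTTCCTC), which 2.79% of the genes in the table held. A match is a run of letters and not a measured binding site.

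**Figure D1:**
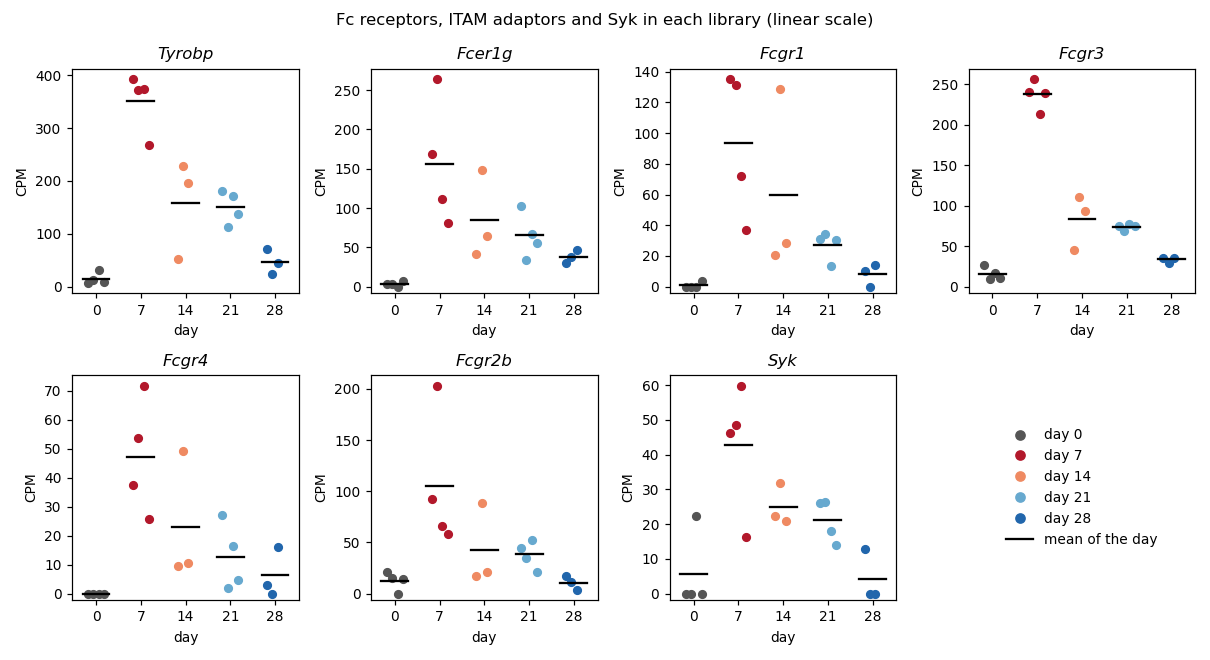
CPM of each gene (vertical axis, linear and on its own scale for each gene) in each of the 18 libraries, grouped by day (horizontal axis), with black lines at the mean of the day. Each gene has its highest mean on day 7, and the 4 day 7 points of Fcgr3 sit between 213 and 257 CPM, above every other library.

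The adaptors were examined first. Tyrobp was at 5.96, 11.955, 31.3 and 7.87 CPM in day 0 replicates 1 to 4 and at 394, 372, 375 and 268 in those of day 7. Day 14 libraries held 52.8, 228 and 197 CPM, those of day 21 181, 113, 171 and 137, and those of day 28 71.8, 23.2 and 44.7. Every day 7, 14 and 21 library lay above every day 0 library, and every day 7 library lay above all the later ones. The log2 fold change against day 0 was 4.62 on day 7 (standard error 0.47, edgeR adjusted p = 2.1e-07), 3.48 on day 14 (standard error 0.48, adjusted p = 4.4e-05) and 3.40 on day 21 (standard error 0.46, adjusted p = 3.7e-05). On day 28 it was 1.72 (standard error 0.50, adjusted p = 0.0928), and day 0 replicate 3, at 31.3 CPM, lay above day 28 replicate 2. Without that day 0 library the day 28 difference was 2.40 and was called (edgeR adjusted p = 0.0293). DESeq2 called it with all libraries (adjusted p = 0.0300). Without the same day 0 library the values on days 7, 14 and 21 were 5.30, 4.16 and 4.09, and they stayed called.

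Fcer1g was at 2.98, 3.59, 0 and 6.56 CPM in the day 0 libraries, 10 counts in all, and at 169, 264, 112 and 80.7 in those of day 7. Day 14 libraries followed at 41.6, 148 and 63.9 CPM, day 21 libraries at 103, 34.3, 67.4 and 55.8, and day 28 libraries at 30.2, 38.0 and 46.3. The lowest injured library, at 30.2 CPM on day 28, was above the highest day 0 library at 6.56. Log2 fold changes against day 0 were 5.46 on day 7 (standard error 0.59, edgeR adjusted p = 4.6e-07), 4.56 and 4.21 on days 14 and 21, and 3.42 on day 28 (standard error 0.63, adjusted p = 0.00657). The day 28 call was lost when only days 0 and 28 entered the fit (adjusted p = 0.151), and with a block on the numbers shared by day 0 and day 21 libraries (4.21, edgeR adjusted p = 0.0830). Without day 14 replicate 2 the day 14 value was 3.89 and was called. For day 28, all 18 fits without 1 of the libraries kept the call (edgeR adjusted p = 0.00386 to 0.0279).

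The balance of both adaptors was then compared among the injured libraries. On days 7, 14, 21 and 28, Tyrobp made up 70.6% ± 8.72, 64.0% ± 10.2, 70.8% ± 5.34 and 52.5% ± 16.5 of the summed Tyrobp and Fcer1g counts (SD, n = 4, 3, 4 and 3). The day 28 libraries ran from 37.8% to 70.4% and overlapped each other day. The difference among days did not pass an exact permutation test over the 14 injured libraries (p = 0.125, adjusted p = 0.557 over 12 such tests). Shares compare counts of 3′ ends, which do not grow with transcript length.

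The activating receptors followed the adaptors. Fcgr3, the gene of a low-affinity receptor for IgG complexes, was at 26.8, 9.56, 16.4 and 10.5 CPM on day 0 and at 240.4, 257, 213 and 239 on day 7. Day 14 libraries were at 44.8, 111 and 93.9 CPM, those of day 21 at 74.5, 68.6, 77.3 and 74.5, and those of day 28 at 35.9, 29.8 and 35.2. Its libraries lay close together on days 7, 21 and 28, and on each injured day all lay above the 4 day 0 libraries. The log2 fold change against day 0 was 3.91 on day 7 (standard error 0.34, edgeR adjusted p = 2.9e-08), 2.40 on day 14 (standard error 0.35, adjusted p = 0.000104), 2.23 on day 21 (standard error 0.34, adjusted p = 0.000149) and 1.10 on day 28 (standard error 0.37, adjusted p = 0.148). The day 28 difference was called without day 0 replicate 1, the highest of that day (1.47, edgeR adjusted p = 0.0480).

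Fcgr3 was also the one gene of the 7 called lower on days 14 and 21 than on day 7. The log2 fold change was -1.51 on day 14 (standard error 0.33, edgeR adjusted p = 0.0163) and -1.68 on day 21 (standard error 0.30, adjusted p = 0.000913). The day 14 call was lost without day 7 replicate 2 (adjusted p = 0.0617), day 14 replicate 1 (adjusted p = 0.197) or day 14 replicate 3 (adjusted p = 0.0537). With the block on shared numbers the day 21 difference was -1.33 and was not called (edgeR adjusted p = 0.127). Of all tested genes, 0.33% and 3.23% were called lower on these days. All libraries lay below those of day 7 for 2 of the 7 genes on day 14, Fcgr3 and Tyrobp, and for 4 on day 21, these with Fcgr1 and Fcgr2b, against 7.59% and 9.18% of all tested genes.

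Fcgr1 encodes the high-affinity receptor for monomeric IgG. It had 3 counts on day 0, all in replicate 4 (3.94 CPM), and stood at 135, 131, 71.8 and 37.1 CPM in the day 7 libraries. Libraries of day 14 held 20.8, 129 and 28.7 CPM, those of day 21 30.8, 34.3, 13.2 and 30.2, and those of day 28 10.1, 0 and 14.4. Day 14 replicate 2 stood at the level of the highest day 7 libraries, and the other two of its day were below all of them. Pooled over libraries, the ratio to day 0 was 91.1 on day 7 (exact 95% interval 30.7 to 445, counting error only), 54.1 on day 14 (18.015 to 266), 26.4 on day 21 (8.63 to 131) and 8.14 on day 28 (2.33 to 43.6). Without replicate 4, day 0 has no count, and the fitted log2 fold changes on days 7, 14 and 21, which then depend on the added prior count, went from 6.28 to 8.88, from 5.61 to 8.21 and from 4.49 to 7.10. Without day 14 replicate 2 that of day 14 was 4.37. By edgeR it was called on days 7, 14 and 21 (adjusted p = 2.1e-05, 0.000504 and 0.00357), and not a week later (adjusted p = 0.222).

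Fcgr4, whose product binds IgG2a and IgG2b in mice, had 0 counts in every day 0 library. It was at 37.4, 53.9, 71.8 and 25.8 CPM on day 7 and at 9.60, 49.4 and 10.4 on day 14. On day 21 it was at 27.2, 2.02, 16.4 and 4.65 CPM and on day 28 at 2.87, 0 and 15.98. After day 7 most libraries held few counts, and the SD within a day was close to or above its mean. Against a floor of 3 counts over the day 0 libraries, it was at least 45.1-fold higher on day 7, 21.0-fold on day 14, 14.8-fold on day 21 and 6.11-fold on day 28. The edgeR test called the first 3 of these differences (adjusted p = 0.000225, 0.00449 and 0.00905) but not the last (adjusted p = 0.118). The call on day 14 had an adjusted p of 0.0469 without replicate 2 of that day, and that on day 21 one of 0.0390 without replicate 1.

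Fcgr2b, the inhibitory receptor, was the Fc gamma receptor with the smallest fold change against day 0. It was at 20.8, 15.5, 0 and 14.4 CPM on day 0 and at 92.6, 203, 65.8 and 58.1 on day 7. Values of 17.6, 88.2 and 20.9 CPM followed on day 14, and the day 21 libraries held 44.9, 34.3, 52.6 and 20.9. Those of day 28 held 17.2, 11.6 and 3.20 CPM. All day 7 libraries lay above day 0, whereas those of days 14 and 28 overlapped it. The log2 fold change was 3.02 on day 7 (standard error 0.65, edgeR adjusted p = 0.00145), and 2.77 with the block on shared numbers, where it was not called (adjusted p = 0.0622). Values of 1.69 and 1.58 on days 14 and 21 were not called (adjusted p = 0.173 and 0.139), but were where low-count genes were left in the test (adjusted p = 0.0259 and 0.0275). On day 28 it was -0.24 (standard error 0.76, adjusted p = 0.921).

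Syk, the kinase shared by both adaptors, was at 46.3, 48.5, 59.8 and 16.1 CPM on day 7. On day 0 it had 15 counts in replicate 3 (22.4 CPM) and 0 in the other 3 libraries. Day 14 libraries held 22.4, 31.8 and 20.9 CPM, those of day 21 26.0, 26.2, 18.1 and 14.0, and those of day 28 12.9, 0 and 0. The day 7 group overlapped day 0 through that replicate 3 and the lowest day 7 library. The log2 fold change on day 7 was 2.94 (standard error 0.99, edgeR adjusted p = 0.0373), and this call was lost without day 0 replicate 1, 2 or 4 or day 7 replicate 1, 2 or 3 (edgeR adjusted p up to 0.101) and with the block on shared numbers (4.42, adjusted p = 0.0759). It was also lost with only days 0 and 7 in the fit (adjusted p = 0.0578) and with the deposited factors as offsets (adjusted p = 0.0535). Values on days 14 (2.17, adjusted p = 0.278) and 21 (1.94, adjusted p = 0.259) were not called. Without day 0 replicate 3 both were called (edgeR adjusted p = 0.00507 and 0.00531), so that 1 library set the call on those days. Day 0 then has no count, and the fitted log2 fold changes on days 7, 14 and 21, which depend on the added prior count, became 7.76, 6.99 and 6.76. That library was also the highest of day 0 for Tyrobp, and had no count for Fcer1g or Fcgr2b.

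**Figure D2:**
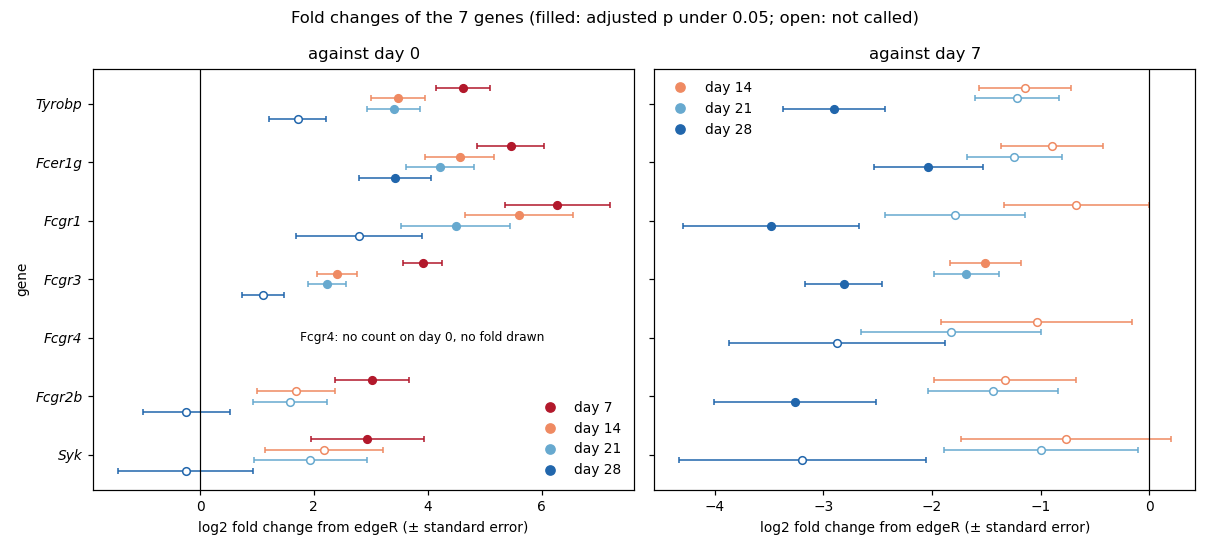
Log2 fold changes from edgeR (horizontal axis) with their standard errors for each gene (vertical axis), against day 0 on the left and against day 7 on the right, coloured by the later day, with filled points for an adjusted p under 0.05. Day 7 is the furthest from day 0 in each row drawn, Fcer1g is the one filled point of day 28 on the left, and Fcgr4 is not drawn there because it had no day 0 count.

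Of the 7 genes, 7, 5, 5 and 1 were called higher than before injury at 7, 14, 21 and 28 days, against 11.3%, 4.8%, 5.92% and 0.97% of all tested genes. None of the 7 would have passed the filter on low counts with the day 0 libraries alone. The median log2 fold change of the 7 was 4.62, 3.48, 3.40 and 1.72 on these days, and remained so with Fcgr4 at its lower bound, against 0.07, 0.05, 0.07 and -0.01 over all tested genes. All libraries lay above all day 0 libraries for 6, 5, 6 and 2 of the genes, which held for 13.6%, 10.7%, 9.31% and 4.88% of all tested genes. The count on day 7 was 5 with the block on shared numbers, 6 with only days 0 and 7 in the fit, 6 with the deposited factors as offsets, and 6 to 7 with 1 library left out. Where only days 0 and 21 entered the fit, Fcgr1 and Fcgr4 did not pass the filter and were not tested. The count on day 21 then fell to 3. That on day 28 ran from 0 to 3 over the alternatives, with 3 by DESeq2.

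The fall after day 7 was then followed. On day 28, 5 of the 7 were called lower than on day 7, against 8.05% of all tested genes. The log2 fold changes were -2.03 for Fcer1g (standard error 0.50, edgeR adjusted p = 0.00748), -3.48 for Fcgr1 (standard error 0.81, adjusted p = 0.00477; -4.11 without day 28 replicate 3), -3.26 for Fcgr2b (standard error 0.75, adjusted p = 0.00442), -2.81 for Fcgr3 (standard error 0.35, adjusted p = 2.3e-05) and -2.90 for Tyrobp (standard error 0.47, adjusted p = 0.000213). Fcgr4 at -2.87 (adjusted p = 0.0554) and Syk at -3.19 (adjusted p = 0.0607) were not called by edgeR, and both were by DESeq2 (adjusted p = 0.0174 and 0.0155). All day 28 libraries lay below all day 7 libraries for each of the 7 genes, as they did for 14.4% of all tested genes. Fcer1g kept 24.4% of its day 7 mean on day 28, Fcgr3 14.2% and Tyrobp 13.2%, whereas Fcgr1 kept 8.68% and Fcgr2b 10.2%. Whether these genes differed from each other in their fall was tested only through the shares given here.

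Neighbouring later days were not told apart. Between days 14 and 21 none of the 7 was called by edgeR, none had an unadjusted p under 0.05 and DESeq2 called none. Of all tested genes 0 were called there, and 421 had an unadjusted p under 0.05. Between days 21 and 28 none was called by edgeR, 4 were lower at an unadjusted p under 0.05 and DESeq2 called 1, Tyrobp (log2 fold change -1.70, adjusted p = 0.0183), against 0.572% of all tested genes called lower by edgeR. The 4 were Tyrobp, Fcgr1, Fcgr2b and Fcgr3. All day 28 libraries lay below all day 21 libraries for Tyrobp, Fcgr2b, Fcgr3 and Syk, as they did for 8.3% of all tested genes.

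**Figure D3:**
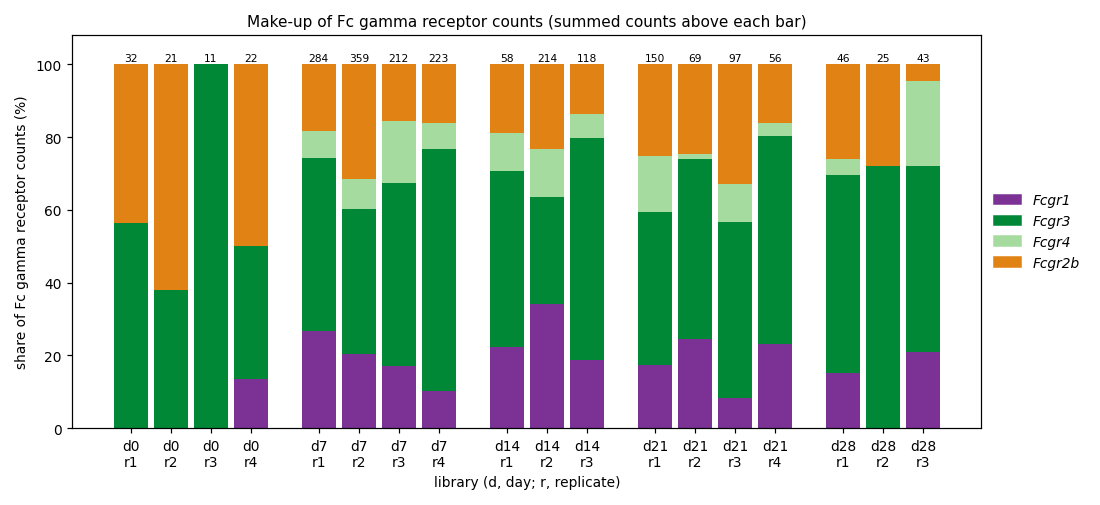
Share of each Fc gamma receptor gene in the summed counts of the 4 receptors (vertical axis, %) in each library (horizontal axis), with the summed count above each bar. Fcgr2b and Fcgr3 fill nearly all of the day 0 bars, which rest on 11 to 32 counts, and all 4 receptors are present in each library of days 7, 14 and 21.

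The make-up of the Fc gamma receptor counts was compared next. On day 0 the 4 libraries held 86 receptor counts, of which 45 were Fcgr3, 38 Fcgr2b, 3 Fcgr1 and 0 Fcgr4. Fcgr1 thus made up 3.49% of them (Wilson 95% interval 1.19 to 9.76%) and Fcgr2b 44.2% (34.2 to 54.7%). For the 0 counts of Fcgr4 the Wilson 95% interval reached up to 4.28%. On day 7, of 1078 receptor counts, Fcgr1 made up 19.3% (17.0 to 21.8%), Fcgr4 9.55% (7.94 to 11.5%), Fcgr2b 21.7% (19.3 to 24.3%) and Fcgr3 49.4% (46.5 to 52.4%). These pooled intervals cover counting error only. Among day 0 libraries the Fcgr2b share ran from 0 to 61.9% and among day 7 libraries from 15.6 to 31.5%, so the libraries overlapped, and the difference between days 0 and 7 in these shares was not tested.

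Among the injured days the shares did not differ beyond the spread between libraries. For days 7, 14, 21 and 28 (n = 4, 3, 4 and 3), Fcgr3 made up 51.1% ± 11.2, 46.2% ± 15.9, 49.2% ± 6.20 and 59.2% ± 11.2 of the receptor counts (mean and SD, exact permutation p = 0.552). The inhibitory Fcgr2b made up 20.4% ± 7.50, 18.6% ± 4.91, 24.8% ± 6.92 and 19.6% ± 13.0 on the same days (exact permutation p = 0.763). Fcgr1 was at 18.6% ± 6.85, 25.1% ± 8.07, 18.4% ± 7.45 and 12.05% ± 10.8 (exact permutation p = 0.351), and Fcgr4 at 9.98% ± 4.70, 10.1% ± 3.16, 7.67% ± 6.36 and 9.20% ± 12.4 (exact permutation p = 0.964). None passed after adjustment over the 12 tests, the lowest adjusted p of these 4 being 0.750.

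**Figure D4:**
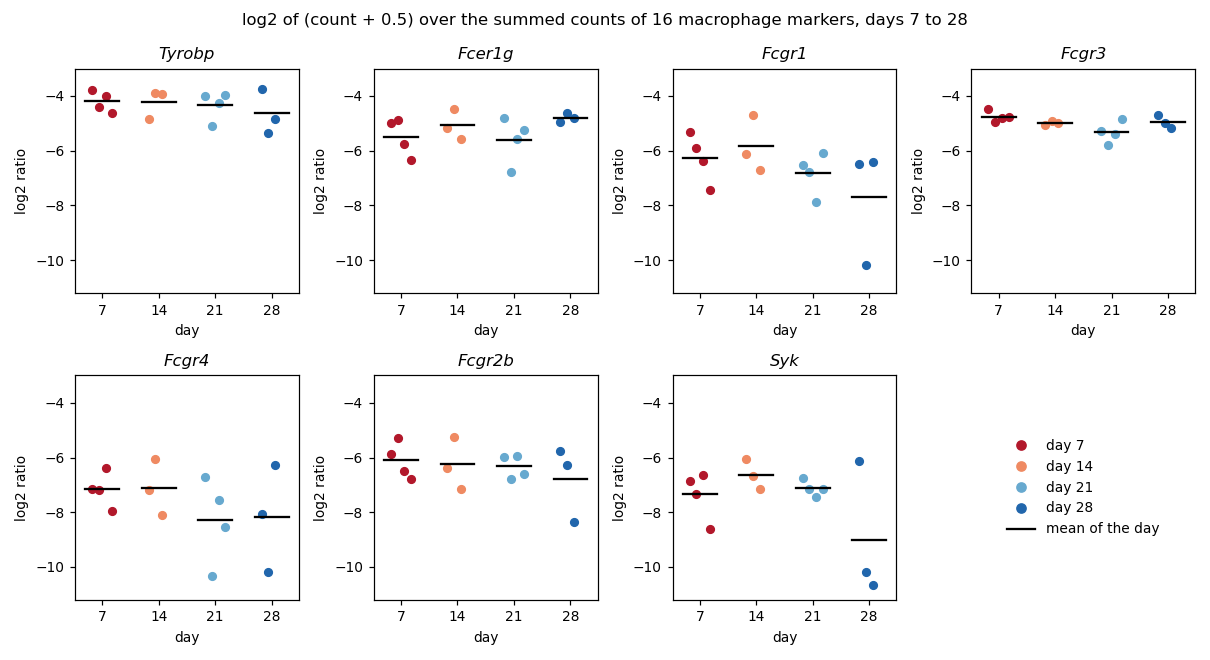
Log2 of each gene's count plus 0.5 over the summed counts of 16 macrophage markers (vertical axis, the same for each gene) in the 14 injured libraries by day (horizontal axis), with black lines at the mean of the day. The days overlap for each gene, and the lowest points of Fcgr1, Fcgr4 and Syk are day 28 or day 21 libraries with 0 or 1 count.

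Each gene was then set against the macrophage markers of the same library. The log2 ratio of Fcgr3 to the summed counts of the 16 markers averaged -4.75 ± 0.19, -4.99 ± 0.08, -5.32 ± 0.40 and -4.96 ± 0.23 (SD) over the libraries of days 7, 14, 21 and 28. This was the smallest p of the 12 tests (exact permutation p = 0.0616, adjusted p = 0.557). Without day 21 replicate 4 the adjusted p was 0.0417 (exact permutation test). For Tyrobp the ratio was -4.20 ± 0.38, -4.22 ± 0.53, -4.32 ± 0.52 and -4.64 ± 0.82 on the 4 days (exact permutation p = 0.743), and for Fcer1g -5.49 ± 0.68, -5.07 ± 0.54, -5.60 ± 0.85 and -4.80 ± 0.16 (exact permutation p = 0.375). Thus Tyrobp CPM fell to 13.2% of the day 7 mean on day 28, while the day means of its log2 ratio to the macrophage markers spanned 0.44. Leaving out day 28 replicate 2 brought that span to 0.12, and leaving out replicate 1 of the same day to 0.89. For Syk the day means spanned 2.38 (exact permutation p = 0.139), with 0 counts in 2 of the 3 day 28 libraries, and 1.55 without day 28 replicate 3 or 3.81 without day 28 replicate 1. A p above the threshold over 14 libraries does not show that the ratios were equal.

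Other receptors that signal through Tyrobp or Fcer1g were examined as a list of 19, of which 7 passed the filter on low counts and 4 had no count in any library. Of the 7 tested, 7, 4, 4 and 0 were called higher than day 0 over the 4 later days (for day 28, 5 at an unadjusted p under 0.05, and 3 by DESeq2), and their median log2 fold change on day 7 was 6.63, or 4.42 with genes without a day 0 count at their lower bound. Of the 7, 4 had no count on day 0, and none of the 7 would have passed the filter on the day 0 libraries alone. Clec4n, which encodes the fungal pattern receptor Dectin-2, had 0 counts before injury and 271 ± 210 CPM a week after it (SD, n = 4), at least 278-fold higher (edgeR adjusted p = 6.1e-07). Trem2, the gene of a lipid receptor of macrophages, rose from 1.40 ± 1.6 to 113 ± 27 CPM (SD, n = 4 each; log2 fold change 6.17, standard error 0.87, edgeR adjusted p = 1.3e-05), and was at 70.2 ± 51 CPM on day 21 (SD, n = 4). Clec4d, which encodes the C-type lectin MCL, went from 2 counts on day 0 to 132 ± 7.2 CPM on day 7 (SD, n = 4; edgeR adjusted p = 0.000289), and Clec5a, a partner of DAP12, from 0 counts to 21.8 ± 18 CPM (SD, n = 4; adjusted p = 0.00367). Fcer1a and Ms4a2, the chains that with Fcer1g make up the IgE receptor of mast cells, had no count in any library. Of 5 mast cell markers 3 had no count in any library (Mcpt4, Tpsb2 and Cma1). Kit, the only one tested, went from 3 counts on day 0 to 40.7 ± 38 CPM on day 7 (SD, n = 4). It was called higher by edgeR (log2 fold change 5.08).

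Other ITAM chains belong mainly to lymphocytes. Of 9 listed, 2 were tested and 1 was called, Clec7a, which encodes Dectin-1 and carries a half-length motif of its own. It rose from 1.86 ± 3.7 to 59.1 ± 31 CPM on day 7 (SD, n = 4 each; log2 fold change 4.93, standard error 0.91, edgeR adjusted p = 0.00031). Cd247, the zeta chain of T and natural killer cells, stood at 5.23 ± 5.7 CPM before injury and 3.68 ± 2.9 a week after (SD, n = 4 each) and was not called. None of 10 T and natural killer cell markers passed the filter on low counts.

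**Figure D5:**
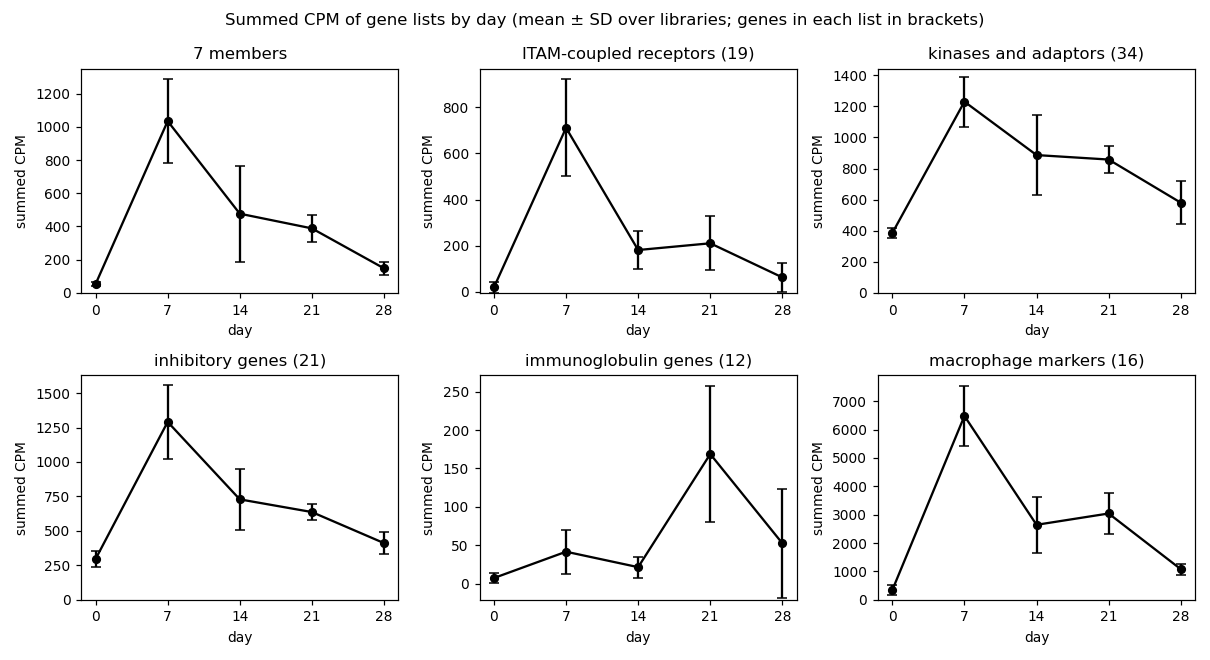
Summed CPM (vertical axis, linear) by day (horizontal axis) of the 7 genes and of 5 gene lists, as the mean and SD over libraries, with the number of genes in brackets. The 7 genes, the ITAM-coupled receptors, the kinases, the inhibitory genes and the macrophage markers are highest on day 7, whereas the immunoglobulin genes are highest on day 21, at 169 ± 88.5 summed CPM.

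Kinases and adaptors that act with or after SYK were listed as 34 genes, of which 27 were tested. On day 7 there were 14 called higher and 0 lower, with a median log2 fold change of 1.64, and 9, 11 and 3 were higher on days 14, 21 and 28. The Src family kinase Lyn, which phosphorylates ITAMs, went from 1 count on day 0 to 72.5 ± 23 CPM on day 7 (SD, n = 4; edgeR adjusted p = 4.2e-06). Its relative Fgr went from 0 counts to 48.7 ± 24 CPM (SD, n = 4; edgeR adjusted p = 7.6e-05), at least 46.8-fold higher. Lat2, the gene of a scaffold downstream of Fc receptors, went from 0 counts to 50.2 ± 18 CPM (SD, n = 4; adjusted p = 5.2e-05), at least 48.6-fold higher. Not all of the cascade was called. The broadly expressed Src had 48.2 ± 12 CPM before injury and 27.5 ± 11 a week after (SD, n = 4 each) and was not called (log2 fold change -0.79, edgeR adjusted p = 0.21), and neither was Gab2 (-0.38, adjusted p = 0.69). Src and Gab2 were chosen after their values were seen.

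Inhibitory receptors and phosphatases oppose this signalling. Of 21 listed, 17 were tested, and 14, 11, 10 and 4 were called higher on the 4 injured days in order, with none lower. Their median log2 fold change on day 7 was 3.79, or 3.58 with genes without a day 0 count at their lower bound. Sirpa, the receptor for the CD47 signal on healthy cells, rose from 30.1 ± 12 to 339.6 ± 93 CPM (SD, n = 4 each; log2 fold change 3.49, standard error 0.34, edgeR adjusted p = 1.2e-07) and was called on each later day. Ptpn6, which encodes the phosphatase SHP-1, went from 3 counts on day 0 to 94.0 ± 24 CPM (SD, n = 4; adjusted p = 1.8e-05), a pooled ratio of 91.9 (exact 95% interval 31.03 to 449). Ptpn11, which encodes the phosphatase SHP-2 and was named after its values were seen, was at 122.7 ± 21.9 CPM on day 0 and 72.9 ± 32.6 on day 7 and was not called (log2 fold change -0.74, edgeR adjusted p = 0.135). Lair1, a collagen receptor, and Clec12a went from 0 counts to 40.2 ± 12 and 48.8 ± 22 CPM (SD, n = 4; adjusted p = 2.7e-05 and 4.3e-05).

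Other Fc binding proteins were mostly too low to test. Of 10 listed, 3 were tested and 1 was called on day 7, Fcrls, a macrophage gene related to Fc receptors, which rose from 5.75 ± 4.5 to 54.8 ± 43 CPM (SD, n = 4 each; log2 fold change 3.25, standard error 0.63, edgeR adjusted p = 0.000561). Fcgrt, which encodes the neonatal Fc receptor that recycles IgG, averaged 82.8 ± 24 CPM before injury and 66.8 ± 23 a week after (SD, n = 4 each; log2 fold change -0.31, adjusted p = 0.62), and was named after its values were seen.

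Immunoglobulin transcripts, of which those of IgG encode the ligands of the Fc gamma receptors, were examined last among the lists. Of 12 immunoglobulin genes 4 were tested, 1 of which was called on day 7 and 0 on day 14 (0 at an unadjusted p under 0.05 and 0 by DESeq2). Against day 0, 3 were called on day 21 (4 at an unadjusted p under 0.05, and 1 by DESeq2) and 0 on day 28 (3 at an unadjusted p under 0.05, and 1 by DESeq2). Igkc, the constant part of the kappa light chain, had no count before injury and averaged 6.44 ± 5.8, 0.588 ± 1.0, 47.7 ± 26 and 14.9 ± 23 CPM (SD) in the 4, 3, 4 and 3 libraries of days 7, 14, 21 and 28. On day 21 it was at least 42.4-fold higher than on day 0 (edgeR adjusted p = 0.0024), while each of the 7 Fc receptor and ITAM genes had a lower mean on that day than on day 7. Igha and Jchain, the chains of IgA and its joining piece, were the other two called on day 21 (adjusted p = 0.026 and 0.036). Of the IgG heavy chains, Ighg2c had 31 counts, all on day 21, and Ighg1, Ighg2b and Ighg3 had 3, 12 and 1 counts over all libraries. Between days 7 and 21 none of the 4 tested genes was called (3 at an unadjusted p under 0.05, and 0 by DESeq2), so a difference between these days was not shown.

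Finally, the tested genes whose levels were most like those of 4 of the genes were found by the root mean square difference of centred log2 CPM over the 18 libraries. For Fcgr3 they were Sirpa (0.45), Csf1r (0.45) and C1qa (0.46), and for Tyrobp Marcksl1 (0.57), Aif1 (0.62) and Itgb2 (0.64). For Fcer1g they were Coro1a (0.54), Cd300c2 (0.62) and Lamb1 (0.64), and for Syk Prex1 (0.63), Got1 (0.70) and Sh3bp1 (0.72). Csf1r, C1qa and Aif1 are among the 16 macrophage markers. Among the 7 genes the most alike pair was Fcgr3 and Tyrobp (0.69), and the least alike were Fcer1g and Syk (1.42). All these points share libraries and their depth, so the differences are descriptions.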

How the data were processed

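MACE libraries of 3′ transcript ends were made from laser-dissected tissue. Per the study's methods, the authors took out PCR duplicates with unique molecular identifiers, cropped low-quality reads, quantified the rest against the mm39 transcriptome with Salmon (1.9.0) and deposited the estimated counts of each gene, all of them whole numbers. A second deposited table holds the normalised signal that the authors made with DESeq2 (1.36.0), with fold changes and p-values of their comparisons, which were not used. That signal holds a library factor and, for Tyrobp and Syk, a further factor of 0.8745 to 1.031. The annotation release is not given in the sources used here.

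Estimated counts were tested with edgeR (4.0.16) in R (4.3.3), with filterByExpr, TMM, quasi-likelihood fits over all 18 libraries grouped by day and Benjamini-Hochberg adjustment over 10312 genes (threshold 0.05). TMM factors were 0.926 to 1.10 and the biological coefficient of variation was 0.449. Depths were 440675 to 878310 counts, so that a gene near 1 CPM has about 1 count in a library. Shares and log2 ratios (0.5 added to counts) were compared among the 4 injured days by exact permutation tests (numpy 2.4.6), with adjustment over 12 tests. The statistic was the between-day sum of squares, over 4204200 arrangements of the libraries. Floors used 3 counts. Both procedures were tested on simulated data. No replicates were duplicates by a chi-square comparison of counts. The median residual correlation between same-numbered libraries of different days was -0.0057 (33 pairs), which cannot exclude a pairing.

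The genes and lists were chosen with earlier results of these data known. From each pathway list, up to 4 called genes with the smallest p on day 7 against day 0 in each direction were to be named, with any gene called against its list, and for 4 of the genes the 3 most alike. One gene that this rule names is not reported here. Other named genes are said to be so, or stand for a list's count. Alternatives were DESeq2 (1.42.0), other scalings, no filter, fits of 2 days, blocks on the replicate number or on the number in the labels, each library left out and other added counts. The factors of the deposited normalised counts were added as offsets after the data were seen.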

Additional observations from a re-analysis of the deposited data

Results flagged for a closer look

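Dixon's test at the 95% level was applied to 45 groups of 4 libraries, and 3 groups had an outlying library. Chance flags about 5% of groups where values are normal and independent, which counts near 0 and shares are not. For Syk on day 0, replicate 3 was at 22.4 CPM and the other 3 libraries at 0. For Fcgr1 on day 0, replicate 4 was at 3.94 CPM, which is 3 counts, and the others at 0. With 3 libraries at 0, any count in the remaining library is flagged, so these flags do not measure its distance. For the Fcgr4 share of Fc gamma receptor counts on day 7, replicate 3 was at 17.0%, above the other libraries of that day.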

How the results depend on the processing

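Results were recomputed under 8 alternatives that keep all libraries and in 18 fits without 1 library each. Of the log2 fold changes of the 7 genes, 452 under the former kept their direction and side of the threshold, 22 gained a call, 7 lost one and 7 changed sign, and under the latter 1091 kept both, 20 gained, 9 lost and 14 changed sign. Left out of these counts are alternatives in which a gene was not tested or had no adjusted p. This was most often so for Fcgr4, and held for every gene on day 21 against day 14. No sign changed in a comparison called with all libraries by edgeR.

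With only days 0 and 21 in the fit, Fcgr1 and Fcgr4 did not pass the filter and were not tested. The number of genes called on day 21 against day 0 was then 3. On day 28 against day 0 it was 3 by DESeq2, 3 without the filter, 0 with only the 2 days, 0 with a block on the label numbers, and 1 to 2 with 1 library left out (2 without day 0 replicate 1 or 3 or day 14 replicate 1). On day 14 against day 7 it was 2 without the filter and 0 to 1 with 1 library left out. On day 21 against day 7 it was 2 by DESeq2, 2 on total counts without TMM, 5 without the filter, 4 with only the 2 days, 0 with the label-number block, and 1 to 3 with 1 library left out (3 without day 7 replicate 4, 2 without day 0 replicate 1 or 3, day 14 replicate 1 or day 28 replicate 2). On day 28 against day 21 it was 1 by DESeq2, 1 without the filter, and 0 to 1 with 1 library left out (1 without day 14 replicate 1 or day 28 replicate 1). The causes of the other changes were not tested. The highest minus lowest day mean of the log2 ratio of Fcgr3 to the macrophage markers was 0.41 to 0.73 with 1 library left out, and was called without day 21 replicate 4.

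Same-numbered libraries did not deviate together (correlations -0.132 to 0.205 over 33 pairs). With so few libraries a day, this cannot exclude that the replicate number marks a pairing. The replicate block changed no count of called genes, with 7, 5, 5 and 1 called against day 0. With it, the uncalled day 21 against day 14 changes had the other sign for Fcgr2b (0.29), Tyrobp (0.059) and Syk (0.083). With a block on the numbers in the labels, of which 3 are shared by a day 0 and a day 21 library (correlations -0.00669 to 0.0554), the sign changed for day 21 against day 14 in Fcgr2b (0.22) and Fcgr3 (0.18), for day 28 against day 21 in Fcgr4 (1.357) and for day 28 against day 0 in Syk (1.22). With 1 library left out, the uncalled day 21 against day 14 changes ran from -0.68 to 0.32 for Fcer1g, -1.54 to 0.12 for Fcgr1, -0.49 to 0.999 for Fcgr2b, -0.49 to 0.078 for Fcgr3, -1.50 to 0.39 for Fcgr4 and -0.50 to 0.26 for Tyrobp, and the day 28 against day 0 changes from -0.77 to 0.17 for Fcgr2b and -4.83 to 4.57 for Syk. The upper ends came without day 14 replicate 2 for day 21 against day 14, and without day 28 replicate 3 (Fcgr2b) or day 0 replicate 3 (Syk) for day 28 against day 0. Depth limits Fcgr1, Fcgr2b, Fcgr4 and Syk, whose day 0 and day 28 libraries held 0 to 15 counts. It also limits the day 0 level of Fcer1g, which rests on 10 counts over all libraries of that day.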
